A study of Mus musculus with 10 samples.

Results

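The genes described are those that bring fatty acids into a fat cell and prepare them for use: Lpl, Cd36, Slc27a1 and Slc27a4 (uptake), Fabp4 and Fabp5 (binding), and Acsl1, Acsl3, Acsl4 and Acsl5 (activation). They were chosen by name, and each was followed through every probe set annotated to its symbol on all 10 arrays. A probe set is a group of short array probes that together give 1 intensity for a transcript. Of the 10 genes, 9 had a named probe set, out of 18193 genes on the array. Acsl1 had none in the annotation used here and was not analysed here. The 9 genes were measured by 21 probe sets, of which 20 passed the filter on low values; the Acsl3 probe set 1428387_at, between -8.10 and 6.25 on all arrays, did not.

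Total RNA of 3T3-L1 adipocytes, fat cells grown in culture from a line of mouse embryo fibroblasts, was hybridised to Affymetrix arrays. The CLA cultures received c9t11 CLA (cis-9,trans-11 conjugated linoleic acid) for 8 h or 12 h; there was 1 array per time, and the labels number both as replicate 1. The control cultures received LA, the usual short name of linoleic acid, which the labels do not spell out, for the same times, with 4 arrays per time numbered as biological replicates 1 to 4. The 2 fatty acids differ in that the double bonds of CLA are conjugated and one of them is trans, whereas those of linoleic acid are both cis and not conjugated. Dose, genotype and the day of differentiation were not given in the labels, no culture without added fatty acid was among the arrays, and all samples came from a single cell line.

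Long-chain fatty acids reach a fat cell from lipoprotein triglyceride, which lipoprotein lipase hydrolyses outside the cell, and cross the plasma membrane with the help of the receptor CD36 and of fatty acid transport proteins. Inside, small cytosolic binding proteins carry them, and acyl-CoA synthetases couple them to coenzyme A, the step that commits them to triglyceride synthesis, membrane lipids or oxidation. Several of these genes, Lpl, Cd36 and Fabp4 among them, are known targets of PPARγ, the nuclear receptor that drives fat cell formation and that fatty acids can bind.

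RefSeq promoter windows (build GRCm38.p6) ran from 250 bases before to 50 bases after a listed start of the gene. They covered 6 of the 9 measured genes, in 8 windows, and none was listed for Lpl, Fabp4 or Fabp5. Those of Cd36 and Acsl4 are shown because all 4 replicate 1 arrays read lower than the others for the brightest probe sets of these genes. That of Slc27a4 is shown because these arrays read higher after normalization, as described below. Capitals mark the hexamer AGGTCA, the core of the element that PPAR and its partner RXR bind as a direct repeat, and the GC box GGGCGG, each on either strand (TGACCT and CCGCCC in reverse).
Cd36, chr5:17835847-17836146, minus strand: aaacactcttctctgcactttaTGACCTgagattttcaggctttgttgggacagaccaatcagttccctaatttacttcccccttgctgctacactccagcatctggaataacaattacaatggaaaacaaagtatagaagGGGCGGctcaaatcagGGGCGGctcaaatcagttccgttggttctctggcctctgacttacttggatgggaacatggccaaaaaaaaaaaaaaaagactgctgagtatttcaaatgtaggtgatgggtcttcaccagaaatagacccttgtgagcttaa
Acsl4, chrX:142390486-142390785, minus strand: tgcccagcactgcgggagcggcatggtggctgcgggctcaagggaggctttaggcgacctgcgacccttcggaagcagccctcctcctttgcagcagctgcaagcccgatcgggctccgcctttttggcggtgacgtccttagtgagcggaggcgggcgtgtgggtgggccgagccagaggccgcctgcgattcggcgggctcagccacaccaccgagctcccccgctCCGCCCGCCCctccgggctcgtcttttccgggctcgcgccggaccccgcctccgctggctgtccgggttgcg
Slc27a4, chr2:29802384-29802683, plus strand: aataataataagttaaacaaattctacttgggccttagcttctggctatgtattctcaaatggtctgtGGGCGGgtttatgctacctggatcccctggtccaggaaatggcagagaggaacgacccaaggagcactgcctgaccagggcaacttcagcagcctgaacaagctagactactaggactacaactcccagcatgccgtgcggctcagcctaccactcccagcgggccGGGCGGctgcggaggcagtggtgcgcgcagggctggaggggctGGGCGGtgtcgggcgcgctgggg
The Cd36 window held 1 AGGTCA hexamer, in reverse, beginning 228 bases before the start used for that window. That start lay inside the annotated Cd36 gene (chr5:17781690-17888959) and not at its outer end. No other of the 8 windows held that hexamer, which was found in 16.3% of all 32851 windows. The spaced repeat AGGTCANAGGTCA was in 0 of the 8 windows and in 0.0396% of all. GC boxes were more frequent: 6 of the 8 windows held at least 1, against 35.7% of all windows. Several windows belong to Slc27a1, and by gene 5 of 6 had a GC box. The Acsl4 window held 2, which overlap in a single stretch, and was 71.7% G or C. The Slc27a4 window held 3 at 58.7%, and the Cd36 window held 2 at 43.0%. A match describes the letters and not a bound site.

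The 4 arrays labelled replicate 1, which include both CLA arrays, stood apart from the 6 LA arrays of replicates 2 to 4. Their 75th percentile of intensity was 26.4 to 39.5, against 54.4 to 76.8. RNA integrity was judged by the control probe sets for beta-actin, whose 3' to 5' ratio was 1.45 to 2.60 on 9 arrays and 5.67 on LA 12 h replicate 4. White adipocyte markers were present. Of 6 measured, Adipoq, Retn, Cidec, Lipe and Pparg were above the floor on every array, and Lep was at the floor on 9 of the 10. Their summed intensity was 18127 to 21865 on the replicate 1 arrays and 13812 to 26504 on the others. In LA replicate 1, 4 were higher and 2 lower than in LA replicates 2 to 4 (median difference 0.07 on the log2 scale). Lipe (1.67) and Cidec (1.03) were the most raised, and Pparg (-0.38) and Lep (-0.27) were lower. Markers of preadipocytes and fibroblasts, the cells from which 3T3-L1 adipocytes form, were also present, with a summed intensity of 9906 to 17647 on the replicate 1 arrays and 18501 to 37835 on the others, and 11 of 11 tested were lower in LA replicate 1 than in LA replicates 2 to 4 (median difference -0.90 on the log2 scale). Their part in the differences below was not tested. Summed macrophage markers were 155 to 221 on the replicate 1 arrays and 118 to 452 on the others. Ptprc, Lyz2 and Itgam were at the floor on all arrays, but Adgre1 and Csf1r were above it on every array. Adgre1 read 44.6 to 96.1 on the replicate 1 arrays and 22.3 to 43.4 on the others. Csf1r read 50.2 to 71.9 and 49.1 to 353. Of 5 macrophage markers tested, 3 were higher and 1 lower in LA replicate 1 than in LA replicates 2 to 4. The endothelial marker Pecam1, the muscle regulators Myod1 and Myog and the brown fat marker Ucp1 were at the floor on all arrays too. In all, 5 of 6 endothelial, 3 of 6 muscle and 2 of 6 brown fat markers were at the floor on every array. Summed muscle markers were 119 to 178 on the replicate 1 arrays and 23.0 to 128 on the others, with Des at 103 to 137 against 5.09 to 87.0. Summed brown fat markers were 156 to 465 against 71.4 to 190, with Elovl3 at 133 to 403 against 18.7 to 140, and summed endothelial markers were -5.03 to 14.8 against -21.8 to 8.84.

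Intensities below are the deposited values, on a linear scale with background already subtracted. Differences are on the log2 scale after quantile normalization with a floor of 14.3, and were tested with limma over 27023 probe sets, with Benjamini-Hochberg adjustment over all of them and a call at an adjusted p under 0.05. A single CLA array per time has no spread of its own, so the fit gives it that of LA, and the number of arrays limits the precision. Replicate numbers paired the LA arrays across time. Differences between CLA and LA are therefore also given from a fit with replicate number as a block. Over both times, this fit compares the CLA arrays with the LA replicate 1 arrays. At a single time, it sets a CLA array against LA replicate 1 of both times, adjusted for the mean LA change between them. Levels of different probe sets are not compared. In whole cultures, fewer cells of a type and less RNA per cell cannot be told apart.

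Across the members, none of the 20 probe sets was called between CLA and LA over both times, where 0.459% of all 27023 were; 7 lay higher and 13 lower in CLA, with a median of -0.34 beside 0.01 for all probe sets. An unadjusted p under 0.05 was reached by 2 of the 20, both of Acsl4, and by 2708 of all 27023. Genes with several probe sets count more than once in that median. By each gene's brightest probe set, the median over the 9 genes was 0.05, or 0.00 with the replicate block. Slc27a1, Slc27a4, Fabp4, Fabp5 and Acsl5 lay higher in CLA and Lpl, Cd36, Acsl3 and Acsl4 lower. With the replicate block, 0 were called and the directions of Lpl, Slc27a1, Slc27a4 and Acsl3 changed.

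**Figure D1:**
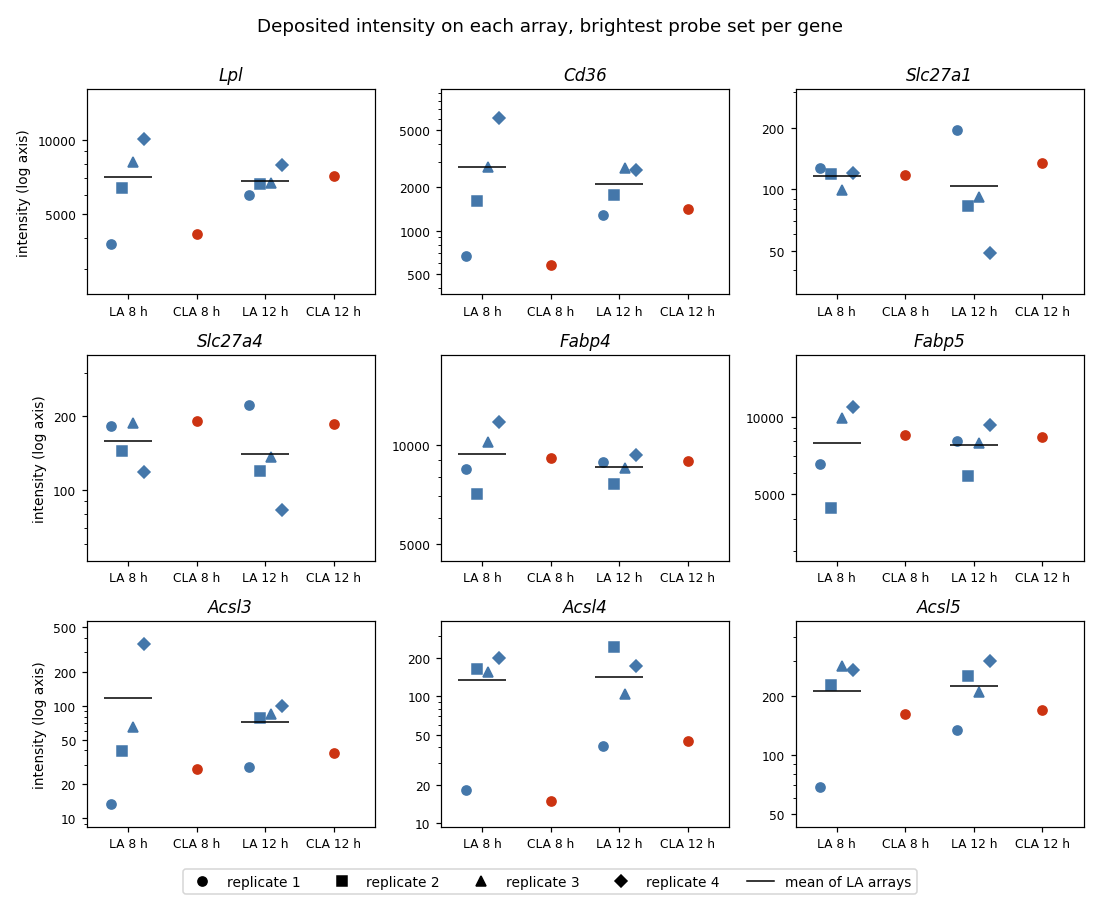
Deposited intensity (log axis) of the brightest probe set of each of the 9 measured genes on the 10 arrays. Blue symbols are LA arrays with their shape giving the replicate number, red circles are the lone CLA arrays, and lines are means of the 4 LA arrays; the CLA points for Cd36 and Acsl4 lie near LA replicate 1 (circles) and below LA replicates 2 to 4.

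Uptake begins with Lpl, the lipase secreted by fat cells. Its brightest probe set (1415904_at) read 3796, 6410, 8155 and 10048 in LA replicates 1 to 4 at 8 h, and 6015, 6626, 6699 and 7886 at 12 h. The CLA arrays read 4177 at 8 h and 7146 at 12 h. At each time CLA lay inside the range of the LA intensities, near the lowest at 8 h, although after quantile normalization it was below all 4 LA arrays of 8 h. Replicate 1 was the lowest LA array at both times. On the log2 scale the LA means were 12.69 ± 0.37 (SD, n = 4) at 8 h and 12.79 ± 0.15 (SD, n = 4) at 12 h. CLA differed from LA by -0.33 over both times (SE 0.28, 95% interval -0.94 to 0.27, limma adjusted p 0.563), and by 0.02 (-0.59 to 0.64) with the replicate block. The difference turned to 0.05 when arrays were scaled to a common median. The second Lpl probe set (1431056_a_at) read 2308 and 4397 in CLA at 8 h and 12 h and 2150 to 7217 in LA, and differed by -0.54 (SE 0.36), or -0.06 with the block.

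Cd36, the receptor that binds long-chain fatty acids at the cell surface, spanned the widest range of the uptake genes. Its brightest probe set (1450883_a_at) read 663, 1596, 2784 and 6024 in LA replicates 1 to 4 at 8 h, and 1282, 1756, 2717 and 2624 at 12 h. In CLA it read 577 at 8 h and 1423 at 12 h. All 4 replicate 1 arrays lay below all 6 others, and LA replicates 1 and 4 at 8 h differed by 9.09-fold. The LA means were 11.13 ± 1.02 (SD, n = 4) at 8 h and 11.01 ± 0.53 (SD, n = 4) at 12 h. The difference of CLA from LA was -1.14 (SE 0.54, 95% interval -2.34 to 0.06, limma adjusted p 0.480), or -0.30 (-1.33 to 0.73) with the replicate block, and was not called in either fit. All 3 probe sets pointed the same way: 1423166_at read 282 and 654 in CLA against 403 to 4132 in LA and differed by -1.29 (SE 0.62), and 1450884_at read 24.5 and 37.8 in CLA against 24.6 to 346 in LA and differed by -1.15 (SE 0.65). With the block their differences were -0.34 and -0.22.

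Slc27a1 encodes a fatty acid transport protein that also has acyl-CoA synthetase activity. Its brightest probe set (1422811_at) read 127, 118, 99.7 and 120 in LA replicates 1 to 4 at 8 h, and 194, 82.9, 91.2 and 48.7 at 12 h. CLA gave 117 at 8 h and 134 at 12 h. CLA lay within the LA range at both times, and LA replicate 1 was the highest of the LA arrays at each. The LA means were 6.84 ± 0.65 (SD, n = 4) at 8 h and 6.40 ± 1.12 (SD, n = 4) at 12 h. The CLA level exceeded that of LA by 0.72 (SE 0.60, 95% interval -0.60 to 2.04, limma adjusted p 0.567), and was lower with the replicate block (-0.52, -1.37 to 0.33). The other probe set (1435658_at, 38.4 to 78.9 over the 10 arrays) differed by 0.74 (SE 0.44) and, with the block, by 0.11.

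Slc27a4, a second transport protein of the same family, was measured by 1 probe set (1424441_at). It read 181, 143, 187 and 118 in LA replicates 1 to 4 at 8 h, and 221, 119, 136 and 82.4 at 12 h. In CLA the readings were 190 at 8 h and 185 at 12 h. In the deposited values CLA was just above the LA range at 8 h and within it at 12 h, whereas after quantile normalization it was within it at both times. The LA means were 7.26 ± 0.75 (SD, n = 4) at 8 h and 6.93 ± 0.89 (SD, n = 4) at 12 h. Over both times the difference was 0.76 (SE 0.53, 95% interval -0.41 to 1.94, limma adjusted p 0.515), or -0.32 (-0.76 to 0.13) with the block.

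Among the binding proteins, Fabp4 is the carrier that marks mature fat cells. Its brightest probe set (1417023_a_at) read 8486, 7093, 10275 and 11827 in LA replicates 1 to 4 at 8 h, and 8914, 7619, 8551 and 9350 at 12 h. In CLA it read 9134 at 8 h and 8929 at 12 h. CLA was inside the LA range at both times, and the LA arrays of 8 h differed by at most 1.67-fold. Over both times the difference was 0.05 (SE 0.20, 95% interval -0.39 to 0.50, limma adjusted p 0.872), or 0.00 (-0.42 to 0.42) with the block. This probe set ranked between 1 and 10 among all probe sets by brightness on every array, where quantile normalization nearly fixes the value, so the small difference does not show that the levels were alike; scaling to a common median instead gave 0.37. The dimmer Fabp4 probe sets did not behave alike: 1451263_a_at differed by -0.07 (SE 0.22), 1424155_at by -0.54 (SE 0.53) and 1425809_at by -0.93 (SE 0.58), and with the block by -0.09, -0.13 and -0.20. The last read 43.3 in CLA at 8 h and 157 at 12 h, against 69.1 to 582 in LA.

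Fabp5, a binding protein best known from the epidermis and also made by fat cells, had a brightest probe set (1416021_a_at) that read 6543, 4388, 9824 and 10854 in LA replicates 1 to 4 at 8 h. At 12 h it read 8045, 5869, 7883 and 9243. CLA gave 8491 at 8 h and 8322 at 12 h. CLA was within the LA range at both times, and here replicate 2, not replicate 1, was the lowest LA array. The LA means were 12.77 ± 0.47 (SD, n = 4) at 8 h and 12.91 ± 0.32 (SD, n = 4) at 12 h. CLA differed from LA by 0.18 (SE 0.30, 95% interval -0.49 to 0.84, limma adjusted p 0.784), and by 0.15 (-0.28 to 0.58) with the block. The second probe set (1416022_at) differed by 0.14 (SE 0.31), or 0.10 with the block. Fabp5 too ranked among the brightest 127 probe sets on every array, and its difference was 0.51 after scaling to a common median.

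Of the acyl-CoA synthetases, which activate long-chain fatty acids, Acsl3 is known for work on the endoplasmic reticulum and on lipid droplets. Its brightest probe set (1452771_s_at, whose suffix marks probes that can match more than 1 transcript) read 13.5, 39.4, 64.8 and 350 in LA replicates 1 to 4 at 8 h, and 28.5, 77.1, 83.6 and 99.0 at 12 h. In CLA it read 27.2 at 8 h and 38.3 at 12 h. LA replicate 4 at 8 h stood far above every other array, and all 4 replicate 1 arrays were lower than all 6 others in these intensities. The LA means were 5.85 ± 1.54 (SD, n = 4) at 8 h and 5.95 ± 0.50 (SD, n = 4) at 12 h. CLA differed from LA by -0.35 (SE 0.75, 95% interval -1.996 to 1.304, limma adjusted p 0.803), and by 0.58 (-0.75 to 1.90) with the block. The other tested probe set (1428386_at) was at the floor on 6 arrays, both CLA arrays included, and differed by -0.40 (SE 0.46), or 0.00 with the block.

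Acsl4, the synthetase with a preference for arachidonic acid and other polyunsaturated acids, showed the largest difference between CLA and LA among the members' brightest probe sets in the fit without the block, though not in that with it. That probe set (1433531_at) read 18.4, 165, 156 and 202 in LA replicates 1 to 4 at 8 h, and 40.7, 246, 105 and 174 at 12 h. CLA gave 15.0 at 8 h and 44.7 at 12 h. Replicate 1 separated from the rest: its 4 arrays read at most 44.7 and the 6 others at least 105, whichever fatty acid was given. The LA means were 6.66 ± 0.997 (SD, n = 4) at 8 h and 6.82 ± 0.73 (SD, n = 4) at 12 h. CLA differed from LA by -1.52 (SE 0.61, 95% interval -2.86 to -0.18, limma adjusted p 0.480), which was not called. With the replicate block the difference was -0.28 (-1.18 to 0.61). The probe set 1418911_s_at, whose probes can also match more than 1 transcript, read 5.90 and 10.7 in CLA, 4.75 and 11.5 in LA replicate 1, and 42.4 to 84.3 in LA replicates 2 to 4. It differed by -1.39 (SE 0.62, limma adjusted p 0.480) and by -0.08 with the block. The third probe set (1451828_a_at) differed by -0.13 (SE 0.48), or 0.32 with the block, with 3.40 in CLA at 8 h and 36.9 at 12 h. It read 10.4 to 54.9 in LA. Here the replicate 1 arrays overlapped with the others, as CLA at 12 h was above LA 12 h replicates 3 (26.0) and 4 (36.0).

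Acsl5, a synthetase found on mitochondria and endoplasmic reticulum, was measured by 1 probe set (1428082_at). It read 68.7, 227, 282 and 270 in LA replicates 1 to 4 at 8 h, and 134, 253, 208 and 300 at 12 h. The CLA arrays read 161 at 8 h and 169 at 12 h. Both CLA arrays lay above LA replicate 1 and below LA replicates 2 to 4 of the same time in these intensities. Without the block, CLA and LA differed by 0.06 (SE 0.29, 95% interval -0.57 to 0.69, limma adjusted p 0.903). With the block the difference was 0.47 (95% interval -0.004 to 0.94, limma adjusted p 0.935). Without further scaling of the deposited values it was -0.28, beside a median of -0.14 for all probe sets.

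**Figure D2:**
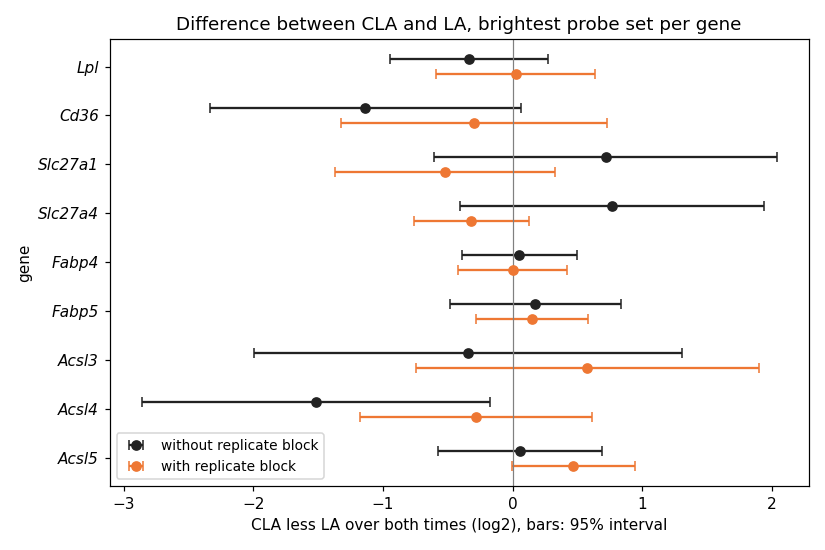
Difference between CLA and LA over both times (log2, horizontal axis) for the brightest probe set of each measured gene, with bars for the 95% interval. Black is the fit without and orange the fit with the replicate block; with the block Cd36 moves from -1.14 to -0.30 and Acsl4 from -1.52 to -0.28, and every orange bar includes 0.

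Several members followed the replicate number. By brightest probe sets, LA replicate 1 was set against LA replicates 2 to 4 within the same time and averaged over both times. It was lower by a log2 difference of -1.65 for Acsl4, -1.23 for Acsl3, -1.12 for Cd36, -0.55 for Acsl5 and -0.48 for Lpl. It was higher by 1.65 for Slc27a1 and 1.44 for Slc27a4. Fabp4 (0.07) and Fabp5 (0.03) were close to 0, but the other Fabp4 probe sets averaged 0.03 (1451263_a_at), -0.56 (1424155_at) and -0.97 (1425809_at). For these brightest probe sets the sign was the same at 8 h and 12 h in all 9 genes. The values were -1.99 and -1.31 for Acsl4, -1.50 and -0.73 for Cd36, and 1.28 and 2.02 for Slc27a1. The second Fabp5 probe set (1416022_at) changed sign, from -0.06 to 0.17. The median over all probe sets was 0.00 at both times.

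Counted over all 10 arrays, 4 of the 20 member probe sets (2 of Cd36 and 2 of Acsl4) had all 4 replicate 1 arrays below all 6 others, where 14.4% of all probe sets did. All above were 3 (2 of Slc27a1 and the Slc27a4 probe set), where 15.2% of all probe sets were. Both member shares were near those of all probe sets. The scaling set the second direction: in the deposited values, whose replicate 1 arrays were dimmer as a whole, 7 member probe sets were all below (3 of Cd36, 2 of Acsl4, and 1 each of Acsl3 and Acsl5; 29.6% of all probe sets) and 0 were all above (2.22% of all). In those values LA replicate 1 still averaged 0.81 higher for Slc27a1 and 0.65 higher for Slc27a4, but its second Slc27a1 probe set turned to -0.17. By brightest probe sets, scaling to a common median turned Lpl to 0.16 and moved Fabp4 to 0.77 and Fabp5 to 0.74. Cd36, Acsl3, Acsl4 and Acsl5 were lower in LA replicate 1 under all 3 scalings, as were the 11 preadipocyte and fibroblast markers on the quantile scale.

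**Figure D3:**
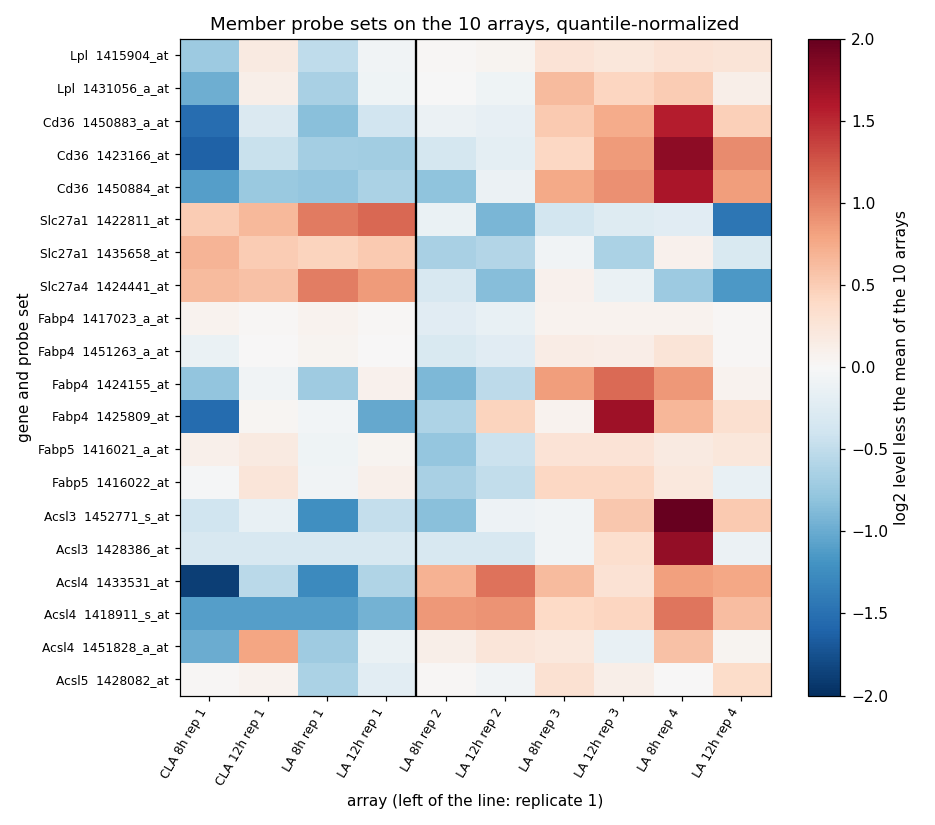
Quantile-normalized log2 level of each of the 20 tested member probe sets (rows) on the 10 arrays (columns), less its mean over the 10 arrays; red is higher and blue lower. The 4 columns left of the line are replicate 1, where the Cd36 and Acsl4 rows are mostly blue and the Slc27a1 and Slc27a4 rows red in both CLA and LA arrays.

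Within replicate 1 a CLA array can be set directly against the LA array of the same time, with 1 array on each side and no test. By brightest probe sets, the difference at 8 h was -0.69 for Cd36, -0.62 for Acsl4, -0.54 for Slc27a1, -0.38 for Slc27a4, -0.21 for Lpl, 0.00 for Fabp4, 0.18 for Fabp5, 0.65 for Acsl5 and 0.83 for Acsl3. At 12 h it was 0.09 for Cd36, 0.05 for Acsl4, -0.50 for Slc27a1, -0.25 for Slc27a4, 0.26 for Lpl, 0.00 for Fabp4, 0.12 for Fabp5, 0.28 for Acsl5 and 0.33 for Acsl3. These probe sets of Cd36 and Acsl4 were lower in CLA at 8 h and near LA replicate 1 at 12 h, but not all probe sets of the genes were: at 12 h Cd36 1423166_at was 0.25 and Cd36 1450884_at -0.11, and Acsl4 1418911_s_at was at the floor in both arrays of 8 h. Over all probe sets the size of this difference had a median of 0.20 at each time and a 90th percentile of 0.87 at 8 h and 0.72 at 12 h, which none of the 9 brightest probe sets exceeded. Of the other probe sets, Cd36 1423166_at (-0.93) and Fabp4 1425809_at (-1.47) did at 8 h, and Fabp4 1425809_at (1.07) and Acsl4 1451828_a_at (0.92) did at 12 h.

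The times were also tested one by one. At 8 h 0 of the 20 member probe sets were called (4.36% of all probe sets), at 12 h 0 were (2.45%), and 0 were for the difference between the times (5.02%). An unadjusted p under 0.05 was reached by 0, 0 and 1 of the 20, and by 2193, 1240 and 1999 of all 27023. In these fits most called probe sets had LA arrays at the floor and hence no spread: all 4 LA arrays of the time for 845 of the 1179 called at 8 h and 522 of the 661 at 12 h. At 8 h CLA differed from LA by -2.11 for Acsl4 (SE 0.92, limma adjusted p 0.640), -1.81 for Cd36 (SE 0.84, limma adjusted p 0.715) and -0.74 for Lpl (SE 0.33, limma adjusted p 0.687). At 12 h the same genes differed by -0.93 (SE 0.92), -0.46 (SE 0.84) and 0.07 (SE 0.33). With the replicate block the differences of Acsl4, Cd36 and Lpl were -0.87, -0.97 and -0.38 at 8 h. At 12 h they turned to 0.31, 0.38 and 0.43, and none was called. Against LA replicate 1 of the same time alone, they were -0.62, -0.69 and -0.21 at 8 h. The corresponding values at 12 h were 0.05, 0.09 and 0.26. After quantile normalization, CLA was below all 4 LA arrays of 8 h in 8 of the 20 member probe sets (3 of Cd36, 2 of Lpl, 2 of Acsl4 and 1 of Fabp4). At 12 h it was below all 4 in 2 (1 of Cd36 and 1 of Acsl4). Of all probe sets, 10.5% and 6.98% were below. Probe sets of a gene are not independent, and the 8 came from 4 genes. On the same scale CLA was above all 4 in 1 at 8 h (Slc27a1) and 1 at 12 h (Acsl4), where 22.7% and 16.6% of all were. LA replicate 1 was itself the lowest LA array in 6 of the 8. Some positions differed in the deposited intensities. At 8 h both Lpl probe sets read above LA replicate 1 in CLA (4177 against 3796, and 2308 against 2150). The Slc27a1 probe set (1435658_at, 64.2 in CLA) was inside the LA range of 39.9 to 78.9, and Slc27a4 was above its range. The Acsl4 probe set (1451828_a_at, 36.9 in CLA) was inside the LA range of 12 h, 18.0 to 49.6.

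Between the CLA arrays themselves the deposited intensity was higher at 12 h than at 8 h by 2.98-fold for Acsl4, 2.47-fold for Cd36 and 1.71-fold for Lpl, with 1 array at each time. LA replicate 1 moved the same way, from 18.4 to 40.7 for Acsl4, from 663 to 1282 for Cd36 and from 3796 to 6015 for Lpl. The arrays were also brighter as a whole at 12 h, with a 75th percentile of 33.9 and 39.5 in CLA and 26.4 and 37.4 in LA replicate 1. After quantile normalization LA replicate 1 rose by 0.67, 0.46 and 0.44. Of the other probe sets of these genes, only Cd36 1423166_at did not rise (-0.01). Acsl4 in CLA at 8 h (15.0) was just above the floor of 14.3. The Acsl4 probe set 1451828_a_at had the only member difference between the times with an unadjusted p under 0.05: CLA less LA was -1.05 at 8 h and 0.79 at 12 h, a change of 1.83 (SE 0.67, limma adjusted p 0.426). It was called only when LA 8 h replicate 1 was left out (2.09, SE 0.41, limma adjusted p 0.0331), and the CLA array of 8 h was at the floor.

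From 8 h to 12 h in LA, 0 of the 20 member probe sets were called, as 0.0037% of all were, and the limma adjusted p of every member was about 1; 0 reached an unadjusted p under 0.05, against 171 of all 27023. The difference was 0.10 (SE 0.21) for Lpl, -0.11 (SE 0.53) for Cd36, -0.45 (SE 0.60) for Slc27a1 and -0.33 (SE 0.54) for Slc27a4. It was -0.01 (SE 0.14) for Fabp4, 0.13 (SE 0.28) for Fabp5, 0.10 (SE 0.76) for Acsl3, 0.16 (SE 0.58) for Acsl4 and 0.12 (SE 0.23) for Acsl5. Slc27a4 was the only gene lower at 12 h in 4 of 4 replicate pairs (-0.17, -0.52, -0.22 and -0.42), and with the block its limma adjusted p was 0.706. LA 12 h replicate 4, the array with the highest beta-actin 3' to 5' ratio, was the lowest for both transport proteins; without it the unpaired difference was -0.06 for Slc27a4 and -0.09 for Slc27a1, and without LA 8 h replicate 1 it was -8.26e-05 and -0.13. An unpaired difference also moves when an array leaves its pair incomplete; the 3 Slc27a4 pairs without replicate 4, given above, were all below 0. Replicate 4 also moved most for Cd36 (-1.09) and Acsl3 (-1.68), from the high array of 8 h; without that array the unpaired difference was 0.31 for Cd36 and 0.83 for Acsl3.

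**Figure D4:**
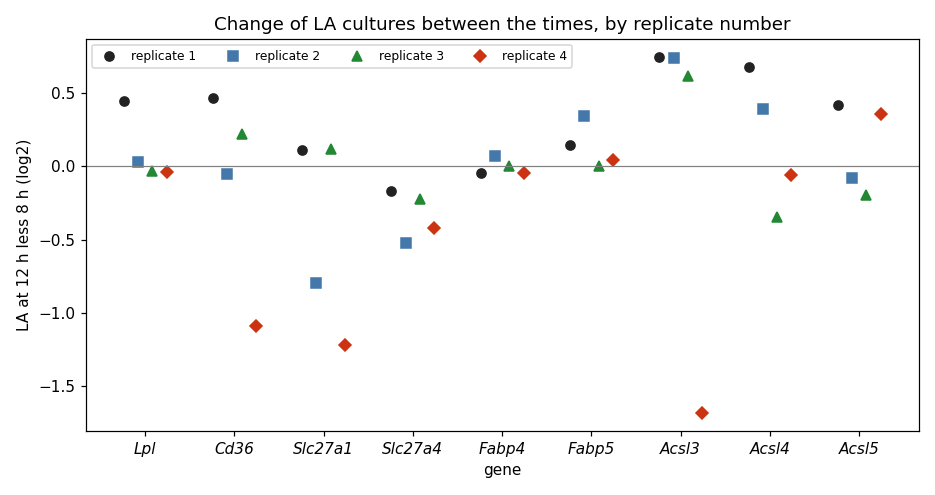
Change from 8 h to 12 h in LA (log2, vertical axis) within each replicate number, for the brightest probe set of each measured gene. All 4 points lie below 0 for Slc27a4. Those of Fabp4 spread least, where quantile normalization nearly fixes the values. The replicate 4 points of Cd36 (-1.09), Slc27a1 (-1.21) and Acsl3 (-1.68) lie lowest.

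A comparison pooled over 8 h and 12 h was deposited too, with a ratio of CLA over LA and a p-value per probe set. Its name gives Rosetta Resolver as the software, but how the arrays were combined is not stated. In the authors' deposited table, a p-value under 0.05 was given for 6 of the 20 member probe sets, all with a ratio below 1, where 22.5% of all probe sets did. These were 3 of Cd36 (ratios 0.462, 0.453 and 0.343), 2 of Acsl4 (0.249 and 0.216) and 1 of Fabp4 (0.821) in the authors' deposited table. After Benjamini-Hochberg adjustment over all probe sets, the 2 of Acsl4 remained in the authors' deposited table (p-values 0.0002 and 0.0003), where 3.23% of all did. Across probe sets, which are not independent replicates and share the same arrays here, the authors' deposited table, as log ratios, correlated at 0.85 with the difference fitted without the block and at 0.0451 with that fitted with it.

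Further genes of the pathway came from lists with 1 probe set per gene, its brightest. Of 14 other transporters, binding proteins and acyl-CoA synthetases with a probe set, 8 were at the floor on all 10 arrays, among them the binding proteins Fabp2, Fabp6 and Fabp7 and the transporters Slc27a2 and Slc27a5. Of the 6 tested, 4 lay higher and 2 lower in CLA over both times (median 0.15) and 0 were called. At 8 h Acsbg1 and Acsl6 were called (0.27, SE 0.02, limma adjusted p 0.000322, and 0.32, SE 0.02, limma adjusted p 0.000124), but each was at the floor on all 8 LA arrays, with 11.6 and 12.0 in CLA, under the floor before scaling. The largest differences over both times were those of Fabp12, a binding protein gene (0.77, SE 0.53, intensities 25.3 to 69.8), Fabp3, the heart form of the binding protein (0.30, SE 0.49, 2.61 to 25.7), Acsl6 (0.16, SE 0.09) and Acsbg1 (0.14, SE 0.08), of which the latter pair was at the floor on 9 of 10 arrays each. With the block those of Fabp12 and Fabp3 were 0.01 and -0.70.

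Genes that handle lipoprotein lipase included its inhibitors, cofactors and maturation factors. Of 14 tested, 0 were called, 9 lay higher and 5 lower in CLA over both times, and the median was 0.42 without and -0.16 with the replicate block. The largest differences were those of Apoc3, an apolipoprotein that inhibits the lipase (1.36, SE 0.83), Angptl4, a secreted inhibitor induced by fatty acids (1.16, SE 0.53), Lmf1, which the lipase needs to mature (1.13, SE 0.68), and Apoc1 (1.004, SE 0.94). Angptl4 read 840 to 1454 on the replicate 1 arrays and 288 to 712 on the others. With the block these 4 differed by -0.08, 0.06, -0.22 and -0.32. Lpl itself lay lower in CLA without the block, by the value given above.

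Of 18 tested genes for other uptake routes, acyl-CoA binding and acyl-CoA hydrolysis, 0 were called, 11 lay higher and 7 lower in CLA over both times, and the median was 0.34, or 0.03 with the block. Acbd5, a peroxisomal acyl-CoA binding protein, differed by -2.49 (SE 0.79, limma adjusted p 0.47), Acot2, a mitochondrial acyl-CoA thioesterase, by 2.02 (SE 0.93), Cavin1, a caveola protein, by 1.32 (SE 0.59) and Acot8 by 0.93 (SE 0.47). For Acbd5 and Cavin1 the replicate 1 arrays did not overlap with the others: Acbd5 read 12.0 to 46.0 against 116 to 438, and Cavin1 read 2368 to 3276 against 762 to 1362. In deposited values, all 4 replicate 1 arrays lay below the others for 29.6% of all probe sets and above for 2.22%. Elsewhere in this list, Cav1 (1721 to 3392 against 3985 to 8439), Scp2, Acbd3 and Acot9 also lay below without overlap, opposite to Cavin1. The ranges overlapped for Acot2 (292 to 498 against 53.1 to 295) and Acot8 (67.5 to 118 against 58.9 to 125). With the block Acbd5, Acot2, Cavin1 and Acot8 differed by -0.83, -0.03, -0.05 and 0.07. From 8 h to 12 h in LA, 0 of 6, 5 of 14 and 5 of 18 genes of the 3 lists lay higher, and none was called.

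Acsl3 had the widest range of the members with no array at the floor, 3.43 on the log2 scale. Over the 10 arrays the genes whose centred profile lay closest to it, of 12888 compared, were Mfsd8, a lysosomal membrane protein (root mean square difference 0.335), Steap4, a metalloreductase of fat cells (0.377), Dram2 (0.403), Erap1 (0.404) and Fam241a (0.409). The median over the 12888 was 1.01, and the profiles share the same arrays, so this likeness is a description.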

How the data were processed

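Per the labels' protocols, total RNA was extracted with Trizol, and biotin-labelled cRNA was made from 15 ug of it. The deposited value table holds linear intensities, 1 per probe set and array, of which 22.5% were 0 or negative, and the software behind it is not given in the sources used here. The authors also deposited a ratio of CLA over LA, its log10 value and log10 error, and a p-value per probe set; how arrays were pooled for them is not stated.

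Of 45101 probe sets, 64 controls were left out. The intensities were quantile normalized, raised to a floor of 14.3 (the size of the table's 2nd percentile) and put on the log2 scale. The lowest 40% of probe sets by mean (18014) were left out. Symbols came from the platform annotation: 34945 probe sets have 1 gene symbol, 932 several and 9160 none, and none was named from a probe set with several. With R 4.3.3, limma 3.58.1 (two-sided, eBayes with trend) fitted treatment and time to all arrays for both times together, and 4 group means for single times, the difference between times and LA over time. The members and lists were chosen with earlier results of these data known. All members were named by their brightest probe set and by their others, and of each further pathway list up to 4 genes with the largest difference and any that passed. Listed genes also passed where not described above. These were the macrophage marker Mrc1 at 12 h and between the times (0.16 in each), and Acsbg1 (-0.27) and Acsl6 (-0.32) between the times. Each was at the floor on all 8 LA arrays.

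Same-numbered LA arrays of 8 h and 12 h, as deviations from their group means, correlated at 0.821, 0.735, 0.408 and 0.542 across probe sets, against at most 0.282 with another number, so the numbers were taken as pairs. The labels call replicates biological without naming separate cultures, so p-values measure the spread between these samples. Simulated data with independent noise were used to test the fits. Alternatives were other scalings, floors and filters, 1 probe set per gene, no variance trend, the replicate block fixed or random, fits of fewer arrays, each array left out, and the authors' p-values. Figures were drawn with matplotlib 3.10.9.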

Additional observations from a re-analysis of the deposited data

Results flagged for a closer look

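Among 40 groups of 4 LA arrays (20 member probe sets at each time), an array lay far from the 3 others in 3, where chance gives about 1 in 20, or 2 groups. Acsl4 (1433531_at) was low in LA 8 h replicate 1, at 5.17 on the log2 scale (intensity 18.4), with the others between 7.06 and 7.26. Acsl3 (1428386_at) was high in LA 8 h replicate 4, at 5.91 (77.9), with the others between the floor of 3.84 and 4.08. Fabp4 (1417023_a_at) was low in LA 8 h replicate 2, at 12.90 (7093), where the others were tied at 13.19 at the top of the quantile-normalized scale.

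The Acsl4 probe set 1451828_a_at moved in opposite directions at the 2 times, with CLA less LA at -1.05 at 8 h and 0.79 at 12 h. The difference of 1.83 between them did not pass (limma adjusted p 0.426, or 0.282 with the replicate block), and each time has 1 CLA array.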

How the results depend on the processing

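No member probe set was called in any of the 5 comparisons under another scaling, floor, filter or probe set rule, without the variance trend, or with the replicate block, fixed or random; the exceptions follow. By the authors' deposited p-value after Benjamini-Hochberg adjustment, 2 member probe sets passed over both times. Without LA 8 h replicate 1, 1 passed for the difference between the times; leaving out each array in turn gave 0 to 1 there and 0 to 0 in the other comparisons. The count with all replicate 1 arrays lower was 4, or 7 in the deposited values; that with all higher was 3, or 0 in the deposited values and 7 after median scaling. For single genes, 578 of 621 alternative values stayed within 1 SE of the reported value, 43 moved further and 50 changed sign. Of the 36 values with the block, 17 moved further than 1 SE and 13 changed sign. Pairing by replicate number took the number of all probe sets called over both times from 124 to 0, at 8 h from 1179 to 957, at 12 h from 661 to 481, between the times from 1357 to 1089 and in LA over time from 1 to 0. Halving the floor, leaving out the lowest 60% or using 1 probe set per gene took each of these to 0. Leaving out each array in turn gave 39 (without LA 8 h replicate 3) to 1183 (without CLA 12 h), 1085 to 1782 (without LA 8 h replicate 1), 623 to 1057 (without LA 8 h replicate 1), 1305 to 2007 and 0 to 4 (without LA 12 h replicate 1). Over both times it was also 664 without CLA 8 h, 344 without LA 8 h replicate 1, 262, 62 and 61 without LA 12 h replicates 1, 2 and 3. Of the probe sets called, all LA arrays of the comparison were at the floor for 845 of 1179 at 8 h, 522 of 661 at 12 h, 980 of 1357 between the times, 40 of 124 over both times and 0 of 1 in LA over time, which limits what most of the background shares show. With 1 CLA array at each time, and both in replicate 1, the median reach of the 95% interval to either side over both times was 0.81, or 0.62 with the block.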
